A study of Homo sapiens with 42 samples.

Results

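The RNA genes described here are the small nucleolar RNA (snoRNA) and small Cajal body RNA (scaRNA) genes on an expression array, 192 of the 18417 genes measured. They were chosen by name: every gene whose symbol starts with SNORA, SNORD or SCARNA followed by a number, where a probe set carried that symbol and no other, with the probe set of highest mean over all 42 arrays standing for each gene. By class, 115 were SNORD genes, 61 SNORA genes and 16 SCARNA genes. A further 76 probe sets carried such a symbol together with others and were left out, and 84 symbols were found only on them. The choice used no comparison of groups.

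SnoRNAs guide the chemical modification of other RNAs in the nucleolus. SNORD genes encode C/D box snoRNAs, many of which direct the methyltransferase fibrillarin (FBL) to riboses of ribosomal RNA. SNORA genes encode H/ACA box snoRNAs, which direct the pseudouridine synthase dyskerin (DKC1). SCARNA genes encode related guides that reside in Cajal bodies and act mainly on spliceosomal RNAs. In human cells most of these RNAs are cut from introns of host genes, many of which encode ribosomal proteins or are non-coding transcripts.

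HL-60 is an established human line of acute myeloid leukaemia, so that all arrays share 1 genetic background. In the inhibitor experiment (18 arrays, 6 groups of 3) cells were untreated or received 10 µM GSK343, an EZH2 inhibitor, or 2.5 µM HKMTI-1-005, an inhibitor of EZH2 and of the H3K9 methyltransferases EHMT1 and EHMT2, without or with 0.1 µM ATRA (all-trans retinoic acid), or ATRA alone, for 3 days. In the knockdown experiment (24 arrays, 8 groups of 3) the cells were WT, which is taken here as untransduced, or carried a lentiviral non-targeting shRNA (Scr) or 1 of 2 shRNAs against EZH2 (shEZH2#1, shEZH2#2), each without or with ATRA. The transduced cells were selected with puromycin and the WT cells carry no vector. EZH2 KD below is the average of both hairpins. The labels number 3 replicates per group without saying which cultures they came from, so that p-values measure the spread between these arrays.

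All values are log2 expression values as deposited, and a difference of 1 between arrays is a 2-fold difference. EZH2, the targeted gene, stood at 9.81 to 10.34 in WT, 10.26 to 10.44 in Scr, 9.13 to 9.49 in shEZH2#1 and 8.98 to 9.56 in shEZH2#2, and with ATRA at 9.78 to 10.33, 9.93 to 10.04, 8.76 to 9.18 and 8.96 to 9.64 in the same order, so that every hairpin array lay below every Scr array of the same ATRA state. The 6 measured myeloid markers of HL-60 (such as MPO and ELANE) were all in the top 40% of genes, and the 4 measured markers of other cell types (CD3E, CD79A, COL1A1, EPCAM) were not. Every probe set had the same mean, to within 4e-05, over the 12 inhibitor arrays of replicates 1 and 2, the 6 inhibitor arrays of replicate 3 and the 24 knockdown arrays. Original levels therefore cannot be compared between these 3 sets, and differences are given within an experiment. Each inhibitor group has replicates 1 and 2 in 1 set and replicate 3 in another. Statements on overlap between inhibitor arrays hold for the deposited values, in which these sets share a mean. The median over all probe sets of an array ran from 5.31 to 5.56, and 6 knockdown arrays stood apart at 5.47 or above (Scr replicates 1 and 2, shEZH2#1 replicate 1, shEZH2#2 replicate 2, WT+ATRA replicate 3 and Scr+ATRA replicate 3).

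The snoRNA genes are placed here by the genes whose span holds them, and the starts of some of these hosts are shown. Of the 192 genes, 189 lie within the span of another gene in RefSeq, without regard to strand, in 104 host genes. SNHG14 holds 40 of them (the SNORD115 and SNORD116 clusters), GAS5 holds 7, MEG8 holds 6 and RPL13A holds 4. Genes of the translation machinery often begin transcription at a C followed by a run of pyrimidines, the terminal oligopyrimidine tract. The criterion was a start of C with at least 4 further pyrimidines (5 in all, read on the strand of the gene). Of the 104 hosts, 88 had a start sequence available, and 28 of these met it at a listed start (31.8%), against 5.14% of 27305 genes. The starts below are 5 of the 8 available among the hosts of snoRNAs called in a comparison further on, shown because they differ in this feature. Each has 20 bases before and 10 bases after the start from RefSeq on GRCh38.p14, with the pyrimidines that run on from the first transcribed base in capitals.
RABGGTB, host of SNORD45A and SNORD45C, chr1:75786236-75786265, plus strand: aggaactgaccctgctctctCCTTTCCCTg
SNHG5, host of SNORD50B, chr6:85678724-85678753, minus strand: tactggctgcgcacttcggtCTTTTacgtc
SNHG1, host of SNORD28, chr11:62855876-62855905, minus strand: tctccccggggagattcgttCTCatttttc
HSPA8, host of SNORD14E, chr11:123062127-123062156, minus strand: ggtggcgggcggaaaccggtCTCattgaac
EIF1AX, host of SCARNA9L, chrX:20141829-20141858, minus strand: gcgacgcaaagagtcgcggcgccatttgct
RABGGTB and SNHG5 meet the criterion with 9 and 5 pyrimidines, SNHG1 and HSPA8 have 3, and the listed start of EIF1AX has none. The listed starts of the 3 not shown (GAS5, PRRC2A and SNHG14) have none either, so that 2 of the 8 meet it. RPL23A and RPL5, ribosomal protein genes that host SNORD4A, SNORD4B and SNORD21, had no start sequence available and are not among the 8. Whether a listed start is the one used in HL-60 cells was not tested, so that a gene without the tract here may still have it.

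A scaRNA can also hold a microRNA. The hairpin of MIR6516 (81 bases, chr17:77089417-77089497, plus strand) lies with 77 of its bases inside SCARNA16, and both mature microRNAs, printed with the seed (bases 2 to 8) in capitals, lie wholly within it. They are shown because SCARNA16 is described below, and whether its probe set also reads the hairpin was not tested.
hsa-miR-6516-5p: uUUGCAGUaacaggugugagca
hsa-miR-6516-3p: aUCAUGUAugauacugcaaaca

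SnoRNA genes were found over the whole range of signal. The genes that could be called in a comparison were those in the top 40% by mean (7367 genes, lowest mean 6.88), and 111 of the 192 (57.8%) were among them, 62 SNORD, 38 SNORA and 11 SCARNA genes. The other 81 were too dim to be called, the nearest on either side of the limit being SNORA41 at 6.83 and SNORA2A at 6.91. The SNORD probe sets of highest signal were those of SNORD13 (mean 13.37, range 12.37 to 13.86), SNORD33 from the RPL13A gene (13.30, range 12.23 to 13.86) and SNORD13P3 (13.16, range 12.28 to 13.64). SNORD13P3 is a pseudogene of SNORD13, and how much of its signal comes from SNORD13 was not tested. Among H/ACA guides these were SNORA23 (12.55), SNORA3A (12.30) and SNORA22 (11.81), and among scaRNAs SCARNA12 (10.75), SCARNA9 (10.57) and SCARNA7 (9.61). Signal depends on the probes, so that this is no order of RNA amounts.

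The imprinted clusters are given by range. The 20 SNORD115 genes, whose RNA is known mainly from brain, had means of 3.87 to 5.61 and none reached the top 40%. The 20 SNORD116 genes of the same host ran from 4.59 to 11.95 (SNORD116-15), and 9 reached it. The 2 SNORD113 and 4 SNORD114 genes of MEG8 had means of 4.06 to 4.68. Copies within these clusters are close in sequence, so that a probe set may read more than 1 of them, and levels of different probe sets are not compared.

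Which snoRNAs changed when HL-60 cells received ATRA, a differentiating agent? Against untreated cells 7 of the 111 fell and none rose, and these were 6 C/D box snoRNAs (SNORD4B, SNORD116-27, SNORD4A, SNORD21, SNORD45C, SNORD28) and SCARNA9L. A gene was called at a fold of at least 1.3 and a Benjamini-Hochberg adjusted p of 0.05 or less from limma over all genes. SNORD116-29 (-0.80, adjusted p = 0.0465) and SNORD96B (-0.42, adjusted p = 0.0318) also passed both limits but were too dim to be called. The 7 are 6.31% of the 111, where 13.1% of all 7367 genes were called, 5.23% higher and 7.85% lower, so that snoRNAs were not called more often than other genes. The methods' t-test gave 0 after adjustment and 7, all lower, before it (18.3% of all genes). In such bulk samples fewer cells with a given snoRNA and less of it per cell cannot be told apart. The mean of the 6 myeloid markers was 9.26 to 9.33 in untreated cells and 9.02 to 9.18 with ATRA (ELANE lower by -0.75, SPI1 higher by 0.69, the others not called), that of the 4 markers of other cell types 4.96 to 5.17 and 5.03 to 5.25, and the part of this shift in the snoRNA values was not tested.

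SNORD28, a C/D guide in an intron of the non-coding SNHG1, stood at 12.62, 12.40 and 12.37 in untreated cells and at 11.55, 11.77 and 11.95 with ATRA. All untreated arrays lay above all ATRA arrays, a fall of 0.71 ± 0.14 (SE) with an adjusted p of 0.000812. SCARNA9L stood at 9.37, 9.31 and 9.03 against 8.46, 8.40 and 8.37, again without overlap, and fell by 0.83 ± 0.19 (adjusted p = 0.00412). These calls held whichever of the 6 arrays was left out.

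SNORD4A and SNORD4B lie in introns of RPL23A, a ribosomal protein gene. SNORD4A stood at 8.32, 8.44 and 8.07 in untreated cells and at 7.00, 6.88 and 8.03 with ATRA, and SNORD4B at 9.29, 9.35 and 8.63 against 7.74, 7.08 and 8.71. ATRA replicate 3 was close to or above the lowest untreated array for both, and the falls were 0.98 ± 0.29 (adjusted p = 0.0287) and 1.25 ± 0.35 (adjusted p = 0.0213). Their host RPL23A differed by -0.01 (adjusted p = 0.953), and the third guide of this host, SNORD42A, by -0.62, which did not pass.

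SNORD116-27 stood at 8.64, 8.34 and 8.43 in untreated cells against 7.81, 6.63 and 7.52, SNORD21 (host RPL5) at 9.08, 9.21 and 8.99 against 7.86, 8.36 and 8.67, and SNORD45C (host RABGGTB) at 10.26, 10.42 and 10.20 against 9.46, 9.26 and 9.93. None of these overlapped. SNORD116-27 fell by 1.15 ± 0.25, SNORD21 by 0.80 ± 0.24 and SNORD45C by 0.74 ± 0.20, with adjusted p of 0.00326, 0.0304 and 0.0186. RABGGTB had a difference of -0.34 (adjusted p = 0.0422), which is under 1.3-fold, and RPL5 one of -0.02 (adjusted p = 0.935). Without ATRA replicate 2 the call of SNORD116-27 was lost (-0.80, adjusted p = 0.0562). Those of SNORD4A, SNORD4B, SNORD21 and SNORD45C were lost without untreated replicate 1, untreated replicate 2, ATRA replicate 1 or ATRA replicate 2, with adjusted p from 0.0510 to 0.268.

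The difference was negative for 152 of the 192 and the median over them was -0.19, against 0.00 over all genes, where 51.5% of differences were positive. Medians were alike in the classes, -0.20 for SNORA, -0.19 for SNORD and -0.11 for SCARNA genes. The arrays were uneven: the mean over the 192 was 7.69, 7.10 and 7.79 with ATRA against 7.91, 7.70 and 7.70 in untreated cells, and ATRA replicate 2 was the lowest of these. Without it the median over the 192 was -0.01 (105 negative) and 2 members were called, where 9.52% of all genes were. Without untreated replicate 1, untreated replicate 2 or ATRA replicate 1 the count was 3 (8.96%, 7.45% and 5.88% of all genes), and without ATRA replicate 3 it was 15 (14.6%). Within replicates 1 and 2 alone (12 arrays, chosen after seeing the data) it was 18, all lower, where 22.8% of all genes were called.

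None of these snoRNAs was called in the knockdown experiment's own ATRA comparison. In WT+ATRA against WT, 0 of the 111 were called by limma (2.13% of all genes called), and 2 had an unadjusted p under 0.05 (13.8% of all genes). The methods' t-test gave 0 after adjustment and 1 before (4.67% of all genes). SNORD28 stood at 12.11, 11.93 and 11.95 in WT and at 11.83, 11.93 and 12.14 with ATRA, a difference of -0.03 ± 0.14. SCARNA9L stood at 8.75, 8.72 and 8.58 against 8.93, 8.45 and 9.60, the last in the array of high median, a difference of 0.31 ± 0.19. The others of the 7 differed by -0.25 ± 0.35 (SNORD4B), -0.09 ± 0.25 (SNORD116-27), -0.00 ± 0.20 (SNORD45C), 0.09 ± 0.29 (SNORD4A) and 0.26 ± 0.24 (SNORD21), none past the test. When the difference between the ATRA effects of the 2 experiments was itself tested, no snoRNA gene and no other gene passed (0% of all genes called). At an unadjusted p under 0.05 there were 14 of the 111, all lower in the inhibitor experiment (9.58% of all genes). The values were -1.14 ± 0.27 for SCARNA9L (adjusted p = 0.169) and -0.68 ± 0.19 for SNORD28 (adjusted p = 0.293). Over the 192 the median difference in WT+ATRA against WT was 0.10, and it was -0.02 with the array median as a covariate and -0.08 without the 6 arrays of high median.

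No snoRNA was called for either inhibitor alone. A change of 1.3-fold was seldom called in simulated data (rates under processing), so that 0 calls do not show that nothing changed. GSK343 against untreated cells gave 0 of 111 by limma (0.0136% of all genes called) and 0 by the methods' t-test (3 before adjustment, 1.07% of all genes), with 2 lower at an unadjusted p under 0.05 in limma (3.15% of all genes). HKMTI-1-005 against untreated cells gave 0 by limma (0.217% of all genes called) and 0 by the methods' t-test (5 before adjustment, 2.08% of all genes), with 5 lower at an unadjusted p (4.79% of all genes). It gave 1 when HKMTI-1-005 replicate 1 was left out (0.109% of all genes). Both comparisons share the untreated arrays with that of ATRA. The median difference over the 192 was -0.19 for GSK343 (153 negative) and -0.14 for HKMTI-1-005 (144 negative), and the second turned to 0.06 (74 negative) without HKMTI-1-005 replicate 2.

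SNORD116-27 came nearest under HKMTI-1-005. It stood at 7.85, 6.78 and 7.63 against the untreated 8.64, 8.34 and 8.43, a difference of -1.05 ± 0.25 (adjusted p = 0.0794), and under GSK343 at 7.94, 8.11 and 7.66 (-0.57 ± 0.25, adjusted p = 1.00). SNORD28 stood at 12.24, 12.01 and 11.85 with HKMTI-1-005 (-0.43 ± 0.14, adjusted p = 0.365). All of these arrays were below the untreated ones, and none of the differences passed.

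On top of ATRA the inhibitors added no called change. GSK343+ATRA against ATRA and HKMTI-1-005+ATRA against ATRA each gave 0 of 111 by limma (0.0136% and 0.76% of all genes called) and by the methods' t-test. In both, 0 of the 111 had an unadjusted p under 0.05 (2.04% and 13.4% of all genes). The medians over the 192 were 0.01 and 0.12, and -0.18 and -0.08 without ATRA replicate 2. No snoRNA passed the test of an interaction of GSK343 or HKMTI-1-005 with ATRA (0% of all genes called in either), with 1 and 3 of the 111 at an unadjusted p under 0.05 (0.217% and 3.69% of all genes). SNORD28, at 11.63, 11.79 and 11.79 in GSK343+ATRA and 11.55, 11.45 and 11.55 in HKMTI-1-005+ATRA, lay near the arrays with ATRA alone, and over the 18 inhibitor arrays its 9 values with ATRA (11.45 to 11.95) overlapped the 9 without (11.85 to 12.62) only at their ends. SNORD21 had 7.86 to 8.81 with and 8.80 to 9.22 without ATRA, and SCARNA9L 8.18 to 8.86 with and 8.86 to 9.37 without.

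SNORD75 was lower in EZH2 KD than in Scr and, without passing the test, higher than in WT. In EZH2 KD against Scr it was the only one of the 111 called (0.901%, where 6.12% of all genes were called, 4.9% higher and 1.22% lower). SNORD75, 1 of the 7 C/D guides of GAS5, stood at 9.52, 9.70 and 9.14 in Scr, at 8.73, 8.33 and 8.81 in shEZH2#1 and at 8.50, 8.92 and 8.84 in shEZH2#2. All 6 hairpin arrays lay below all Scr arrays, and the fall was 0.76 ± 0.20 (adjusted p = 0.0254). The call was lost with 1 fit per experiment (adjusted p = 0.0891), with the array median as a covariate (0.167), without the 6 arrays of high median (0.864) and in the methods' t-test (0.355), which called 0 of the 111 after adjustment. The myeloid markers also differed here (median -0.39, CEBPA of 6 called lower at -0.60), with a marker mean of 9.55 to 9.62 in Scr, 9.08 to 9.74 in shEZH2#1 and 8.89 to 9.10 in shEZH2#2, and the part of this in the value of SNORD75 was not tested. WT cells, which carry no vector, stood at 7.75, 8.20 and 8.66, so that SNORD75 was 0.49 ± 0.20 higher in EZH2 KD than in WT (adjusted p = 0.346). Against WT no snoRNA was called by limma for EZH2 KD (0.407% of all genes called), with 9 at an unadjusted p under 0.05 (16.4% of all genes). The methods' t-test gave 0 there after adjustment and 7 before (3.38% of all genes). The call for SNORD75 was lost without Scr replicate 1, Scr replicate 2, shEZH2#1 replicate 2 or shEZH2#2 replicate 1, with adjusted p from 0.0590 to 0.261 and 0 members called each time, where 0.801% to 4.51% of all genes were called. The count was 4 without shEZH2#2 replicate 2 (16.5% of all genes) and 9 without Scr replicate 3 (30.2%). Against WT it was 1 without shEZH2#2 replicate 3 (0.869%).

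The other GAS5 guides differed less from Scr, at 0.06 for SNORD44, -0.17 for SNORD74, -0.25 for SNORD77, -0.43 for SNORD78, -0.24 for SNORD79 and -0.19 for SNORD81, and none passed. The median over all 192 was -0.10 against Scr and 0.08 against WT. It was 0.10 and -0.06 with the array median as a covariate, and 0.02 and 0.00 without the 6 arrays of high median, of which Scr holds 2 and EZH2 KD 2.

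Scr against WT gave more snoRNA calls than EZH2 KD against Scr, and it also gave more calls over all genes (21.6% against 6.12%). Of the 111, 6 were higher and 1 lower in Scr (6.31%, where 21.6% of all genes were called, 3.16% higher and 18.4% lower). Higher were SNORD14E (1.39 ± 0.42, adjusted p = 0.0293), SNORD75 (1.25 ± 0.23, adjusted p = 0.00111), SNORA38 (1.08 ± 0.26, adjusted p = 0.00895), SNORD4A (0.99 ± 0.29, adjusted p = 0.0233), SNORD50B (0.76 ± 0.23, adjusted p = 0.0309) and SCARNA9L (0.62 ± 0.19, adjusted p = 0.0279). SNORD45A was lower by -1.30 ± 0.33 (adjusted p = 0.0118). The methods' t-test gave 0 after adjustment and 11, all higher, before it (9.3% of all genes).

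Scr replicates 1 and 2, the 2 arrays of highest median, stood farther from WT than Scr replicate 3 in several of these genes. SNORD45A stood at 10.31 and 10.35 there and at 12.06 in Scr replicate 3, next to 12.65, 12.01 and 11.95 in WT. SNORA38, an H/ACA guide in an intron of PRRC2A, stood at 8.45 and 8.49 there, at 7.48 in Scr replicate 3 and at 6.94, 6.85 and 7.38 in WT. SNORD14E, an HSPA8 intron guide, stood at 8.45, 8.53 and 7.12 against 6.55, 6.66 and 6.74. For these genes Scr replicate 3 lay nearest to WT, and for SNORD45A inside its range. For the 6 genes called higher every Scr array was above every WT array.

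SNORD4A and SNORD4B, both from RPL23A and both lower with ATRA above, went apart here. SNORD4A stood at 8.28, 8.59 and 8.20 in Scr against 7.11, 7.11 and 7.88 in WT. SNORD4B stood at 7.56, 7.59 and 8.63 against 8.06, 8.83 and 8.60 (-0.57, adjusted p = 0.303). Without the 6 arrays of high median, which leaves Scr with 1 array assumed to vary like the other groups, 0 of the 111 were called in Scr against WT, where 0.217% of all genes were. With the array median as a covariate it was also 0 (1.3% of all genes). Leaving out Scr replicate 1, Scr replicate 2 or WT replicate 1 left 1 call each time, that of SNORD75 (2.73%, 2.42% and 4.36% of all genes), WT replicate 2 left 3 (11.4%), and without Scr replicate 3 there were 18 (43.9%). The myeloid markers AZU1, PRTN3, ELANE and CEBPA were called higher in Scr (4 of 6, by 1.47, 1.44, 0.83 and 0.65), with a marker mean of 9.55 to 9.62 in Scr and 8.60 to 9.00 in WT. The mean of the markers of other cell types was 5.00 to 5.07 and 4.89 to 5.00, and the part of the marker shift in the snoRNA values was not tested. The median over the 192 was 0.14 and turned to -0.18 with the covariate and to -0.02 without the 6 arrays. It was -0.01 after centring the arrays on their medians, a scaling that moved the median of all genes from -0.01 to -0.17 in this comparison.

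With ATRA present, SCARNA9L was the only snoRNA called between EZH2 KD+ATRA and Scr+ATRA (0.901% of the 111, with 5.38% of all genes called, 3.39% higher and 1.98% lower). It stood at 9.04, 9.02 and 9.29 in Scr+ATRA, at 8.26, 8.51 and 8.25 in shEZH2#1+ATRA and at 7.96, 8.50 and 8.44 in shEZH2#2+ATRA. No hairpin array reached a Scr array, and the fall was 0.80 ± 0.16 (adjusted p = 0.00386), while its host EIF1AX differed by 0.11 (adjusted p = 0.835). The call was lost without Scr+ATRA replicate 3, an array of high median (-0.71, adjusted p = 0.0562, 0 members and 1.86% of all genes called). The count was 3 without shEZH2#2+ATRA replicate 2 (5.84% of all genes) and 2 without Scr+ATRA replicate 1 (3.33%) or shEZH2#2+ATRA replicate 3 (6.76%). The methods' t-test gave 0 after adjustment and 19, all lower, before it (10.9% of all genes).

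SCARNA9L is named for its likeness to SCARNA9, and what share of its signal comes from SCARNA9 was not tested. Of the 192, 163 had a negative difference in this comparison, with a median of -0.31. That is the largest median of the 10 comparisons and it was -0.16 with the array median as a covariate and -0.13 without the 6 arrays of high median. No snoRNA passed the test of an interaction of EZH2 KD with ATRA (0.0814% of all genes called), with 2 at an unadjusted p under 0.05 (10.2% of all genes).

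**Figure D1:**
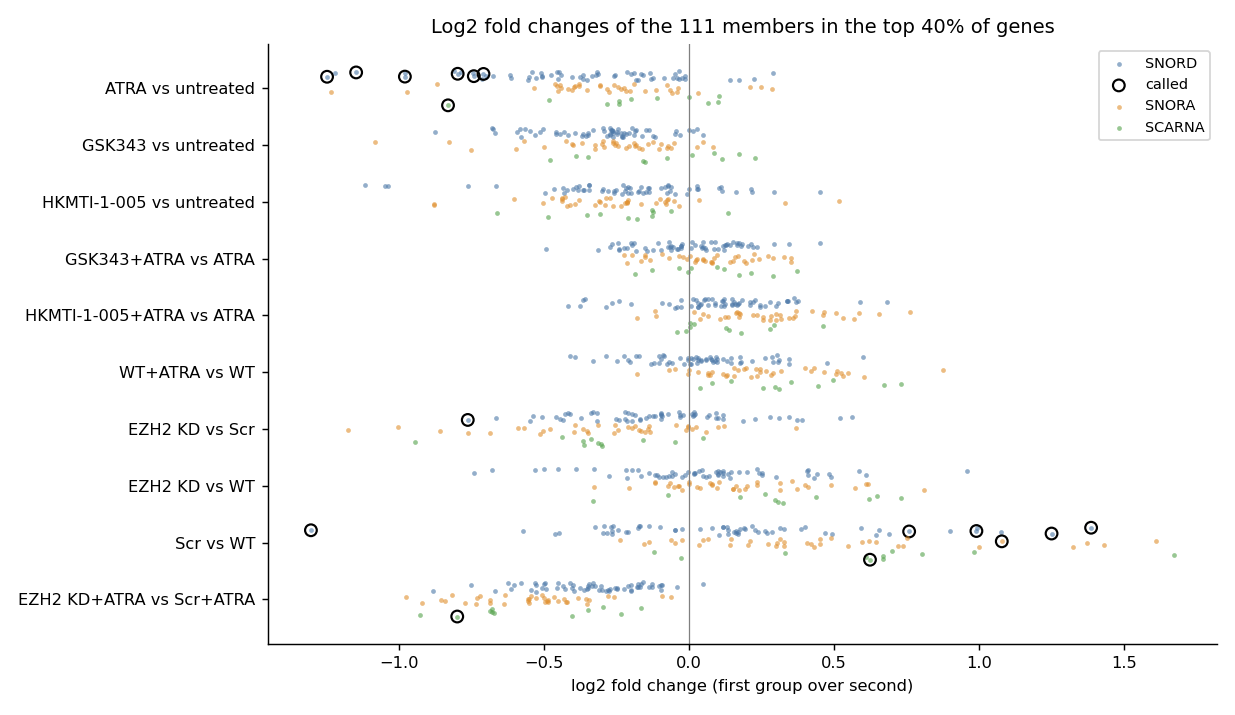
Log2 fold changes, first group over second, of the 111 snoRNA and scaRNA genes in the top 40% of genes for 10 comparisons, by class (SNORD blue, SNORA orange, SCARNA green), with called genes ringed. The 16 calls fall on 12 genes in 4 comparisons, and 6 of them are higher.

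Transcripts that encode proteins of the snoRNA particles fell with ATRA in part, and the proteins were not measured. In ATRA against untreated cells 2 of the 4 H/ACA core genes were called lower, DKC1 (-0.77 ± 0.16, adjusted p = 0.00248) and NHP2 (-0.62 ± 0.16, adjusted p = 0.0129), with NOP10 and GAR1 not past the test. Of the 2 measured C/D core genes, FBL and NOP58, 0 were called (list median -0.28), FBL with -0.35 (adjusted p = 0.0101) being under the fold. Of 14 assembly factors 3 were called lower, which were RUVBL1 (-0.83), NOLC1 (-0.77) and NAF1 (-0.54). Of 7 Cajal body genes bright enough to be called, COIL (-0.43), GEMIN5 (-0.88) and GEMIN8 (-0.70) were lower, as were EXOSC2 (-0.39) and EXOSC7 (-0.60) of the 12 genes of the RNA exosome list, whose complex trims snoRNA ends, and the non-coding host EPB41L4A-AS1 (-0.54) of 5. None of these lists had a gene called higher there, where 5.23% of all genes were called higher and 7.85% lower. In WT+ATRA against WT none of the 6 lists had a called gene, where 2.13% of all genes were called. The members of these lists were picked with results of these data known, and their counts are descriptions.

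The mean over the 192 snoRNAs differed widely between arrays of a group. It was 7.61 over all arrays, with an SD of 0.25 within groups and of 0.11 among the 14 group means. Means of 3 arrays spread less than single arrays even without a difference between groups, so that these SDs are unlike measures. In the inhibitor experiment group means ran from 7.53 ± 0.38 (SD, n = 3) with ATRA to 7.77 ± 0.12 in untreated cells. In the knockdown experiment they ran from 7.42 ± 0.18 in shEZH2#1+ATRA to 7.78 ± 0.28 in Scr+ATRA. Neighbours in either order differed by less than the larger SD of each pair.

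Single snoRNAs also varied widely within groups. The median ratio of the SD of group means to the SD within groups was 0.48 for the 111 bright snoRNA genes. It was 0.81 for all 7367 bright genes, so that a smaller spread of group means was common to genes in general. The median SD within groups was 0.42 for the 111 bright snoRNA genes against 0.19 for all 7367 bright genes, and the first principal component of the deviations from group means held 65.5% of their variance against 42.3% over the bright genes. The 5 of largest SD over the 42 arrays were all H/ACA guides, SNORA80E (0.85), SNORA58 (0.82), SNORA2A (0.81), SNORA20 (0.81) and SNORA62 (0.80). The 5 of smallest SD (0.09 to 0.10) were SNORD114-3, SNORD115-32, SNORA5B, SNORD115-41 and SNORD113-3, all with means under 5.

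**Figure D2:**
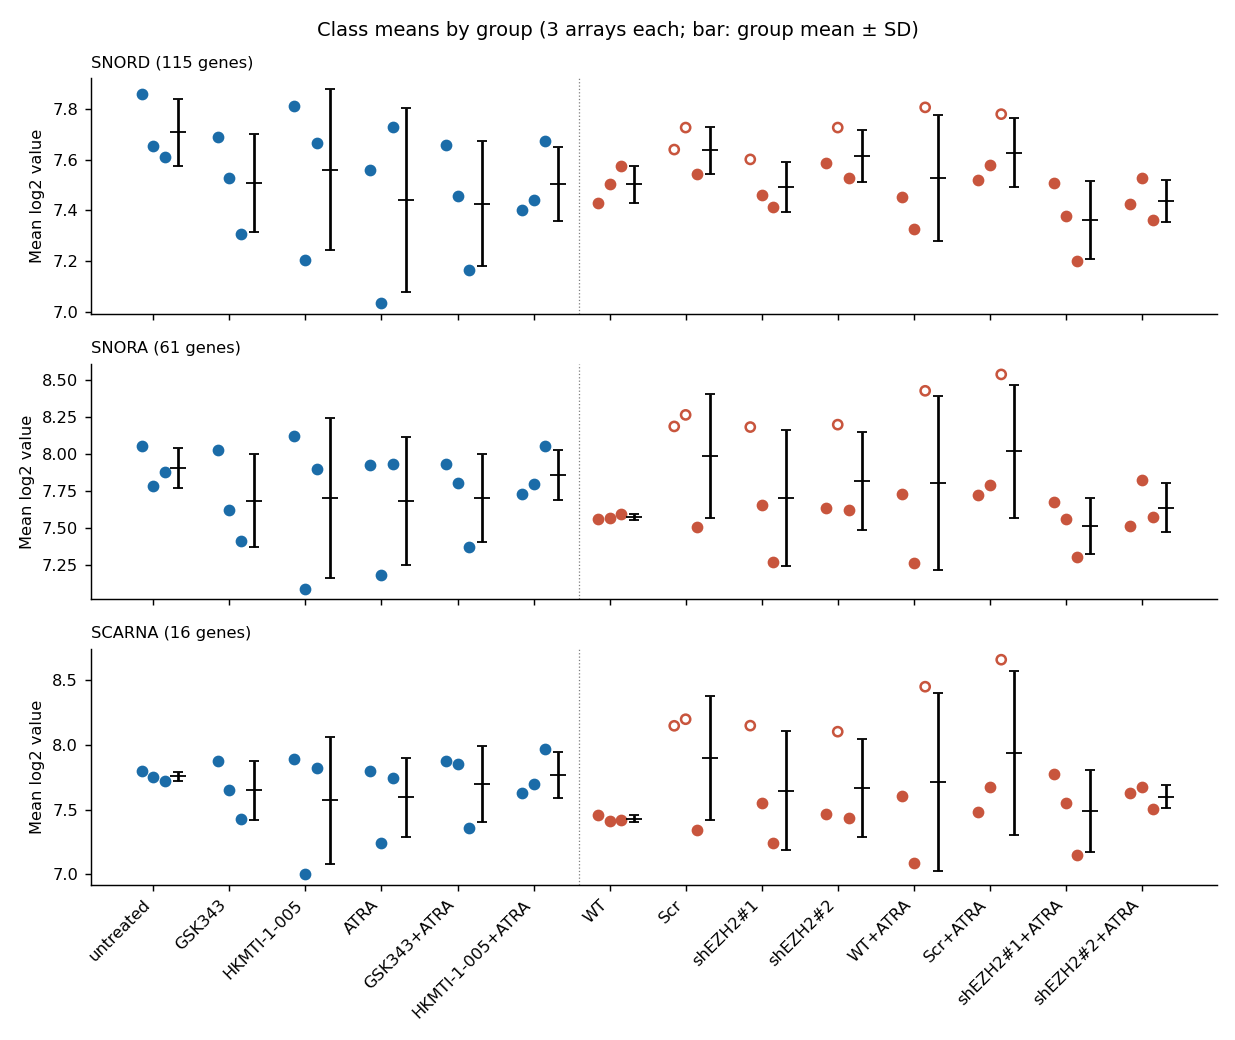
Mean log2 value over the genes of each class on each array (points, inhibitor arrays blue, knockdown arrays red, the 6 knockdown arrays of highest median open) with the group mean ± SD. The open points are highest in their groups in all 3 classes, and SNORA and SCARNA means spread more within groups (SD 0.36 and 0.39) than SNORD means (0.19).

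The members' mean followed the median of the array. Over the 24 knockdown arrays Pearson's r was 0.83 and Spearman's rho 0.71, over the 18 inhibitor arrays 0.54 and 0.60, and over all 42 after removing group means 0.69 and 0.72. Without the 2 arrays farthest from the middle of the median, r was 0.83, 0.49 and 0.68. No p is given, since the mean is a score over chosen genes and the points share processing. Within the 18 knockdown arrays that lack the 6 of high median r was 0.35, so that much of the relation in that experiment rests on those 6: their members' mean was 7.83 to 8.09, and in the other 18 it was 7.23 to 7.65, without overlap.

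The sign of this relation depended on which probe sets make up the median. The 12083 probe sets without a gene symbol carried the median of the whole array (r = 0.99 within groups), and with their median alone the members' mean had r = 0.70 within groups. The median over the 1-symbol probe sets that are no members moved against that of the whole array (r = -0.80 within groups), and with it the members' mean had r = -0.67 within groups, -0.54 over inhibitor and -0.81 over knockdown arrays. Over the genes in the top 40% that are no members it was -0.75 within groups. Arrays of high median were thus high in snoRNAs and in probe sets without a symbol, and low in the middle of the annotated genes. The ranges are narrow for the medians (5.60 to 5.71 for the 1-symbol probe sets, 5.01 to 5.47 for those without a symbol) and wide for the members' mean (7.10 to 8.09).

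**Figure D3:**
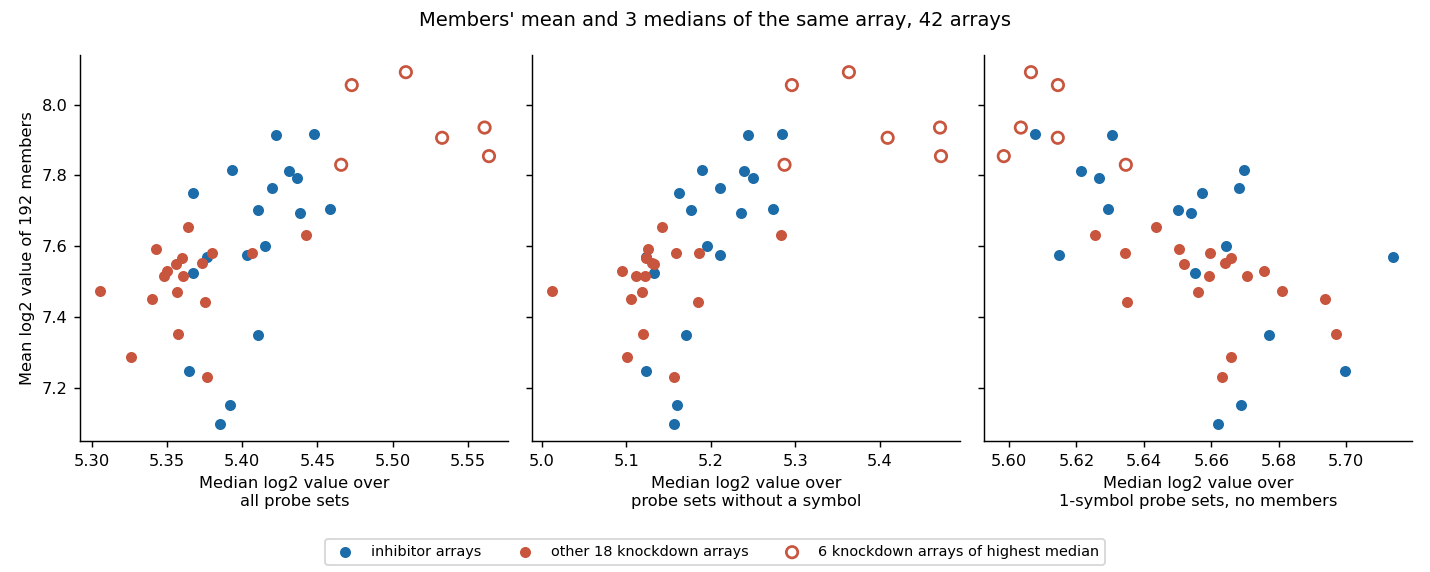
Mean log2 value of the 192 snoRNA and scaRNA genes against the median of the same array over all probe sets, over those without a symbol and over 1-symbol probe sets that are no members (42 arrays; inhibitor blue, knockdown red, the 6 knockdown arrays of highest median open). The relation rises in the first 2 panels and falls in the third.

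Gene by gene, the snoRNAs went against the other bright genes. The correlation with the array median within groups was positive for 105 of the 111 bright snoRNA genes (94.6%) and for 20.6% of all 7367 bright genes, with medians of 0.48 and -0.47. H/ACA box snoRNAs and scaRNAs followed the median more closely than C/D box snoRNAs: the median r was 0.63 for the 61 SNORA, 0.59 for the 16 SCARNA and 0.31 for the 115 SNORD genes. The gap between the SNORA and the SNORD mean of an array lay between 0.47 and 0.76 for the 6 arrays of high median, lay between -0.14 and 0.30 for the remaining 18 of that experiment, and had r = 0.84 with the array median within groups.

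The genes that followed the median most closely were SCARNA5 (r = 0.90), SNORD53 (0.89), SNORD13P2 (0.86), SNORA70B (0.85) and SNORA55 (0.85). SCARNA5 had 8.34 to 9.11 in the 6 arrays of high median and 6.26 to 7.83 in the remaining 18 knockdown arrays. SCARNA16, which holds the microRNA hairpin printed above, had r = 0.84, with 9.03 to 9.32 in the 6 arrays against 7.21 to 8.37 in the other 18. Both groups of arrays were apart for each of these scaRNAs. At the other end were SNORD96A (-0.61), SNORA70C (-0.59), SNORD45A (-0.51), SNORD4B (-0.42) and SNORA5B (-0.39), of which SNORD45A had 10.31 to 11.65 in the 6 arrays and 11.33 to 12.65 in the other 18.

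Longer RNAs followed the median more closely across genes. Over the 192, Spearman's rho between gene length and that r was 0.53, and over the 111 bright ones 0.62. Length and class go together, with median lengths of 81 nt for SNORD, 134 nt for SNORA and 226.5 nt for SCARNA genes. Within the bright genes of a class rho was 0.21 for SNORD, 0.22 for SNORA and -0.31 for the 11 SCARNA genes, so that most of the pooled value lies between the classes. Spearman's rho between the mean level and r was 0.18 over the 192 and -0.18 over the 111. These are correlations across genes, which are not independent replicates.

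**Figure D4:**
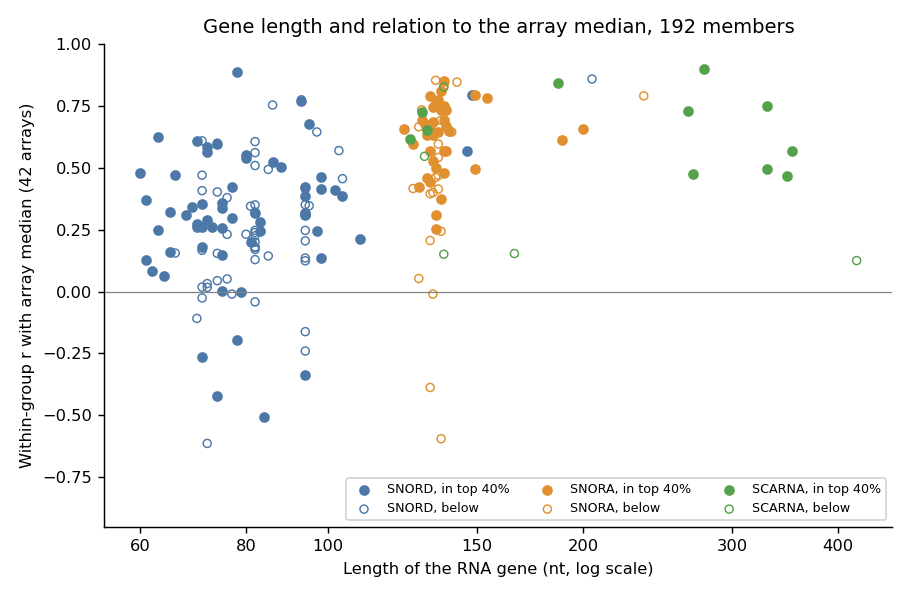
Length of each of the 192 RNA genes in nucleotides (log scale) against its correlation with the array median after removing group means (42 arrays), by class, with genes below the top 40% open. SNORD genes lie at the left with a median r of 0.31, and most SNORA and SCARNA genes lie above 0.5.

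SnoRNAs correlated more with the mean of the other snoRNAs than with the probe set of their host. A mean over many genes is less noisy than 1 probe set, so that these correlations are unlike measures. With the members' mean, the median correlation within groups was -0.37 over all 7367 bright genes. For the 94 whose host was measured, the median correlation within groups was -0.14 with the host and 0.75 with the mean of the other snoRNAs, and the second was the higher in 86 of 94. The host correlation ran from -0.83 (SCARNA10) to 0.73 (SNORD15A). For the called genes it was 0.09 for SNORD4A and 0.47 for SNORD4B with RPL23A, 0.39 for SNORD45C and 0.10 for SNORD45A with RABGGTB, 0.22 for SNORD21 with RPL5, -0.46 for SCARNA9L with EIF1AX, -0.26 for SNORD14E with HSPA8 and -0.15 for SNORA38 with PRRC2A. The hosts of the other called genes were not analysed here.

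The genes most like the snoRNA mean were other small RNAs. Of all genes that are no members, the 5 with the highest correlation within groups over the 42 arrays were RNU5E-1 (0.96), RNU5B-1 (0.90), RNU5A-1 (0.89), RNU6ATAC (0.89) and RNU2-1 (0.89), all RNAs of the spliceosome. The mean of 24 other small RNA genes had r = 0.95 with the snoRNA mean and 0.56 with the array median. The mean of 139 microRNA genes had 0.54 and 0.87. Thus spliceosomal and related RNAs tracked the snoRNAs more than the array median, and the microRNA probe sets, of which only 6 were in the top 40%, the reverse. The most opposed were GIT2 (-0.86), PRDM10 (-0.81), TFPT (-0.81), KLHDC10 (-0.81) and FIP1L1 (-0.80). The exosome and assembly lists also ran against the snoRNA mean (r = -0.66 and -0.63), as did the Cajal body list (-0.65), while that of the H/ACA core was -0.16.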

How the data were processed

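Total RNA was hybridised to Affymetrix Human Gene 1.0 ST arrays after amplification with the WT PLUS kit. GC-RMA normalization and removal of batch and date effects in Partek were done by the authors. The deposited log2 values were used unchanged; that they are log2 is not stated and was taken from their size (lowest 3.18). Which arrays formed a batch, and the versions of these tools, are not given. Of 33297 probe sets, 19460 carry 1 symbol in GEO's platform annotation, 1754 several and 12083 none.

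A linear model with 1 mean per group was fitted over the 42 arrays (limma 3.58.1, R 4.3.3; 28 residual and 3.37 prior degrees of freedom) for 10 comparisons and 4 interactions, with Benjamini-Hochberg adjustment over 18417 genes. Called genes had an adjusted p of 0.05 or less, a fold of at least 1.3 and a mean in the top 40%. Correlations within groups used deviations from group means. Hosts are RefSeq genes whose span holds a member, without strand. The fit was tested on simulated data with the groups and within-group spread of these arrays. For ATRA against untreated it called 10% of bright genes changed 1.3-fold, 56% of those changed 1.5-fold and 92% of those changed 2-fold. The bright snoRNA genes had a larger spread within groups than bright genes in general, and a rate for them alone was not simulated.

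The members and lists were chosen with earlier results of these data known. Named genes are the 3 brightest of each class, called members (at most 10 per direction), the 5 of largest and smallest SD, the 5 most and least related to the array median, core particle genes, large hosts, EZH2 and the 5 most alike genes. An item that the rule names is not reported here. Other called list genes, the GAS5 guides, SCARNA16, near misses and SNORD42A were named after their values were seen. Alternatives changed the block, fit, test, scaling, filter, probe sets and arrays used. Same-numbered replicates deviated together for GSK343 against untreated (correlations 0.43, 0.47 and 0.45) and HKMTI-1-005 against untreated (0.30, 0.37 and 0.20). All 3 correlations were also positive for GSK343+ATRA against ATRA (0.71, 0.02 and 0.38) and WT+ATRA against WT (0.06, 0.22 and 0.25). The same held for shEZH2#1 against WT (0.26, 0.28 and 0.03). Every other pair of groups had a negative correlation among its replicates.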

Additional observations from a re-analysis of the deposited data

How the results depend on the processing

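The replicate block changed no count of called snoRNAs in any of the 10 comparisons (ATRA against untreated 7, Scr against WT 7, EZH2 KD against Scr 1, EZH2 KD+ATRA against Scr+ATRA 1, the others 0), and this includes the comparisons whose numbers pair the arrays. Of the main values under settings other than leaving out an array, 99 stayed within 1.5 times, 21 moved and 6 reversed. With 1 fit per experiment, EZH2 KD against Scr had 0, Scr against WT 4 and EZH2 KD+ATRA against Scr+ATRA 2. The methods' t-test, after adjustment, gave 0 in all comparisons, and before it 7 for ATRA against untreated (18.3% of all genes), 6 for EZH2 KD against Scr (7.75%), 11 for Scr against WT (9.3%) and 19 for EZH2 KD+ATRA against Scr+ATRA (10.9%). With the array median as a covariate the counts were 12 for ATRA against untreated (all 7 called without it among them, 18.9% of all genes), 1 for HKMTI-1-005 against untreated, 0 for EZH2 KD against Scr, 0 for Scr against WT and 2 for EZH2 KD+ATRA against Scr+ATRA. The last was also 2 with quantile normalization, without the expression filter and without the 6 arrays of high median. EZH2 KD against Scr was 3 without the filter and 0 without the 6 arrays, and Scr against WT was 0 without them.

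Leaving out 1 array at a time gave 2 to 15 for ATRA against untreated, 1 to 18 for Scr against WT, 0 to 9 for EZH2 KD against Scr, 0 to 3 for EZH2 KD+ATRA against Scr+ATRA, 0 to 1 for EZH2 KD against WT and 0 to 1 for HKMTI-1-005 against untreated. It gave correlations with the array median of 0.47 to 0.64 over inhibitor arrays, 0.81 to 0.86 over knockdown arrays and 0.66 to 0.72 within groups. A batch term for inhibitor replicate 3, added after seeing the data, left 8 for ATRA against untreated and 0 elsewhere, and replicates 1 and 2 alone gave 18 there and 1 for HKMTI-1-005+ATRA against ATRA.

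The relation to the array median turned with the median over 1-symbol probe sets that are no members (-0.54 over inhibitor arrays, -0.81 over knockdown arrays, -0.67 within groups) and, added after seeing the data, with that over bright genes that are no members (-0.46, -0.85 and -0.75). The median over the members in place of their mean gave 0.76 within groups. The cause was not tested. The number of arrays limits the precision, and 81 members were below the filter and could not be called.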
